A study of Mus musculus with 9 samples.

Results

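The genes described here are Gsg1, Sphkap, Mylk, Plpp2 and Lrrc2, 5 of the 50764 genes in the deposited count table, taken by symbol in all 9 libraries. They were chosen by their levels in Olig3 against GFP libraries, and those values are given as a description. The edgeR statistics of that comparison, and its calls under other settings, show where the genes lay around the threshold and test nothing. Olig2 against GFP shares the GFP libraries with that comparison, and Olig3 against Olig2 shares the Olig3 libraries, so none of the 3 comparisons is independent of the choice. The RNA came from cells of wild-type adult male mice that were picked as retinal ganglion cells. These neurons send their axons through the optic nerve to the brain. Each eye had received 1.5 µL of AAV2, an adeno-associated virus that enters ganglion cells from the vitreous, carrying Olig3, Olig2 or GFP, with 3 libraries per group. All groups carried the virus and a crush of the optic nerve, and the labels give 14 days for each. The sources used here name neither the promoter in the virus nor the age of the mice. Cells were bound to beads against CD90.2 (Thy1), then those that glowed with GFP were collected singly under a microscope. The labels do not agree on their number, with limits between 10 and 20 per library. They do not say whether libraries came from separate animals, so p-values cover the spread between the 9 libraries only, part or all of which can be technical.

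Library totals ran between 5355691 and 6979851 counts. Olig3 libraries 1 and 3 stood apart with 16188 and 14434 detected genes, against 18184 to 21338 in the other libraries. The delivered factor was read in its own group: Olig3 had 172, 113 and 597 counts in Olig3 libraries, 0, 5 and 7 in Olig2 libraries and 13, 0 and 40 in GFP libraries. Olig2 had 6, 4 and 0 counts in Olig3 libraries, 114, 97 and 21 in Olig2 libraries and 0 in every GFP library. Markers of other cell types were abundant in cells labelled ganglion cells: the summed level of 20 ganglion cell genes averaged 233 CPM (a gene's counts scaled to a fixed library total) with Olig3, 296 with Olig2 and 1580 with GFP, while 16 rod photoreceptor genes averaged 115000, 129000 and 67700 CPM. In RNA pooled over picked cells, fewer cells of a type and less RNA per cell cannot be told apart.

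Olig2 and Olig3 are transcription factors of the basic helix-loop-helix family, which bind the short DNA word CANNTG (an E-box) as dimers and are best known for setting the fate of neural progenitors and oligodendrocytes. The 5 genes belong to no single pathway. Gsg1 codes for a claudin-like membrane protein known from mouse germ cells, where it binds the testis form of poly(A) polymerase. Sphkap holds protein kinase A of type I in place, Mylk is the calcium-dependent kinase that starts smooth muscle contraction by phosphorylating myosin light chains, Plpp2 removes phosphate from lipids such as phosphatidic acid and sphingosine phosphate, and Lrrc2 is a leucine-rich repeat protein known from heart muscle and mitochondria.

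The promoters of 3 of the genes are shown because a delivered factor of this class could be read against its DNA word, with the gene that had the largest fold, the one that was lower and the one whose window lacks the word. They run from 250 bases before to 50 after the RefSeq start on GRCm38.p6, the sequence of mm10, and capitals mark CANNTG, which reads the same on both strands.
Gsg1, chr6:135254287-135254586, minus strand: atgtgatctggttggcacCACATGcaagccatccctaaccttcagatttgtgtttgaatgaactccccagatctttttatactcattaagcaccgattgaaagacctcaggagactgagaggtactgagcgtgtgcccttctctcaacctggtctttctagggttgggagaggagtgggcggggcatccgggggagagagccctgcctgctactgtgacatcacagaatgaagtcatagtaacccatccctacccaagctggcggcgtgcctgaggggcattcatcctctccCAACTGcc
Lrrc2, chr9:110951295-110951594, plus strand: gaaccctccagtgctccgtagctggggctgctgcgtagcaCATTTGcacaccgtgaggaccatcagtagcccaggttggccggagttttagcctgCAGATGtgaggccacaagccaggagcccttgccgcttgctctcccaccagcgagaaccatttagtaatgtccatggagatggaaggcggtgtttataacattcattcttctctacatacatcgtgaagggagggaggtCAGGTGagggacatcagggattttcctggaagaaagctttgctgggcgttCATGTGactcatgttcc
Mylk, chr16:34784700-34784999, plus strand: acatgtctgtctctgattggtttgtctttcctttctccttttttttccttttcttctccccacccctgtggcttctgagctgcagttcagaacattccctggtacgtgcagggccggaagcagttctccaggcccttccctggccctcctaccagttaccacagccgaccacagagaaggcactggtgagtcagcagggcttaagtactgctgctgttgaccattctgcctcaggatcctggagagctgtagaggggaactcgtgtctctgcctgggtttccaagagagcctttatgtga
The word occurred 2 times in this Gsg1 promoter, 4 times in that of Lrrc2, 1 time each in those of Sphkap and Plpp2 and 0 times in that of Mylk. A second annotated Gsg1 promoter also held 2. Of 32851 promoters of this length, 72.3% held the word at least 1 time, with a median of 1, so its presence does not set these genes apart. The Mylk window surrounds a RefSeq start that lies inside the span of the gene and not at its first annotated base, so its count of 0 holds for that start alone. These matches are letters in a window and not measured binding.

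Gsg1 (chr6:135237326-135254351, minus strand, mm10) was highest with Olig3. Its TMM-scaled level was 193, 113 and 287 CPM in Olig3 libraries 1, 2 and 3, 50.8, 89.0 and 100 CPM in Olig2 libraries and 36.8, 27.7 and 33.5 CPM in GFP libraries (TMM is a scaling that evens out differences in composition between libraries). These rest on 452 to 1964 counts in Olig3 libraries, 358 to 561 in Olig2 libraries and 219 to 251 in GFP libraries. All 3 groups were separate, with every Olig3 library above every Olig2 library and every Olig2 library above every GFP library. The means were 197 ± 87.2 CPM with Olig3, 80.0 ± 25.9 with Olig2 and 32.6 ± 4.61 with GFP (SD, n = 3 each), a 6.05-fold difference between Olig3 and GFP. With only Olig3 library 2 kept in its group, the log2 change against GFP was 1.80, against 2.60 with all libraries. Fam234b, on the opposite strand, shares 293 exon bases with Gsg1, and its counts were 0.574 to 3.01 times those of Gsg1 over the 9 libraries (edgeR adjusted p = 0.411 in Olig3 against GFP). Of the 1586 exon bases of Gsg1, 1175 lie inside the span of Fam234b. Whether counting used the strand is not stated, so reads of this pair may not be separable either.

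Sphkap (chr1:83254139-83408200, minus strand) had the same order of group means. It had 297, 164 and 315 CPM in Olig3 libraries, 178, 124 and 122 CPM in Olig2 libraries and 73.3, 80.2 and 45.7 CPM in GFP libraries. Olig3 library 2 lay below Olig2 library 1, so the factor groups overlapped, while both lay wholly above GFP. The means were 259 ± 82.3, 141 ± 31.7 and 66.4 ± 18.3 CPM with Olig3, Olig2 and GFP (SD, n = 3 each), 3.89-fold higher with Olig3 than with GFP. The log2 change was 1.96 with all libraries and 1.32 with only Olig3 library 2 in its group.

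Mylk (chr16:34745210-35002420, plus strand) had 101, 68.7 and 82.5 CPM in Olig3 libraries, 41.9, 58.4 and 39.1 CPM in Olig2 libraries and 15.6, 20.5 and 28.0 CPM in GFP libraries. The 3 groups did not overlap on this scale. Without TMM scaling, Olig2 library 3 (32.3 CPM) lay below GFP library 3 (33.3 CPM). The means were 84.1 ± 16.2 CPM with Olig3, 46.5 ± 10.4 with Olig2 and 21.4 ± 6.22 with GFP (SD, n = 3 each), a 3.93-fold difference between Olig3 and GFP. A gene on the opposite strand, E130310I04Rik, shares 548 exon bases with Mylk, and the sources used here do not state whether counting used the strand, so reads of the pair may not be separable. Its counts were 519, 194 and 400 in Olig3 libraries, 210, 162 and 155 in Olig2 libraries and 76, 116 and 74 in GFP libraries. That was 0.703 to 0.754 times the Mylk counts in Olig3 libraries, 0.659 to 0.712 in Olig2 libraries and 0.352 to 0.724 in GFP libraries, where GFP library 3 gave the lowest ratio. Another gene on the opposite strand, Gm21691, shares 224 exon bases with Mylk, and 2148 exon bases of Mylk lie inside its span. Its counts were 0.0814 to 0.356 times those of Mylk over the 9 libraries.

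**Figure D1:**
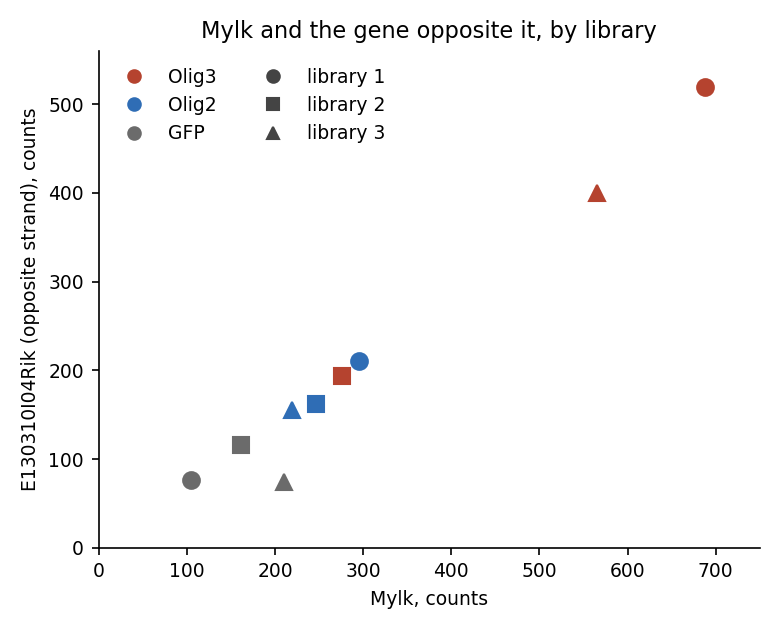
Counts of Mylk (horizontal) and of E130310I04Rik on the opposite strand (vertical) in each of 9 libraries, coloured by group and with a marker shape for the library number. The points lie near 1 line except GFP library 3, with 210 counts of Mylk and 74 of its partner.

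Plpp2 (chr10:79526430-79533796, minus strand) set Olig3 apart from both other groups. It had 110, 72.2 and 64.3 CPM in Olig3 libraries, 32.4, 29.4 and 31.6 CPM in Olig2 libraries and 22.0, 28.4 and 17.3 CPM in GFP libraries. Olig2 libraries lay just above the GFP libraries, at 29.4 CPM for the lowest against 28.4 CPM for the highest, but without TMM scaling they overlapped, at 22.8 to 35.5 CPM with Olig2 and 20.6 to 32.2 CPM with GFP. The means were 82.1 ± 24.4, 31.1 ± 1.53 and 22.6 ± 5.57 CPM with Olig3, Olig2 and GFP (SD, n = 3 each), 3.63-fold higher with Olig3 than with GFP.

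Lrrc2 (chr9:110951545-110984066, plus strand) was the one gene of the 5 that was lower with both factors. It had 190, 147 and 81.3 CPM in Olig3 libraries, 201, 170 and 225 CPM in Olig2 libraries and 447, 575 and 678 CPM in GFP libraries. Every factor library lay below every GFP library, and the factor groups overlapped. The means were 139 ± 54.6 CPM with Olig3, 199 ± 27.8 with Olig2 and 567 ± 116 with GFP (SD, n = 3 each), 4.07-fold lower with Olig3 than with GFP. Per kilobase of exon, the scale on which genes can be compared, Lrrc2 averaged 37.1, 52.8 and 151 CPM with Olig3, Olig2 and GFP. On that scale Gsg1 averaged 124, 50.5 and 20.6, Plpp2 49.7, 18.8 and 13.7, Sphkap 26.9, 14.7 and 6.92 and Mylk 7.46, 4.13 and 1.90 CPM per kilobase. Lrrc2 was thus the highest of the 5 with GFP and with Olig2, and Gsg1 the highest with Olig3, although the Gsg1 and Lrrc2 means with Olig2 differed by less than their spread (SD 16.3 and 7.40).

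**Figure D2:**
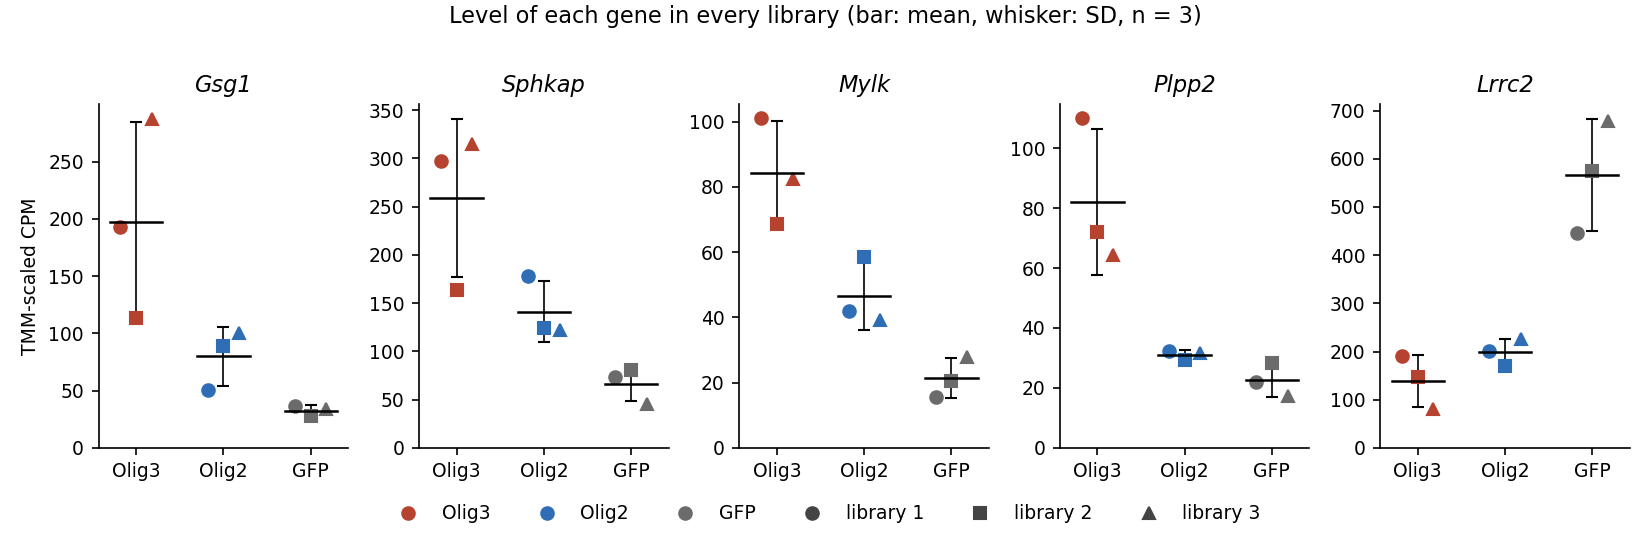
TMM-scaled CPM of each gene (vertical, linear from 0) in Olig3, Olig2 and GFP libraries, with 1 point per library, a bar at the mean and a whisker of 1 SD (n = 3). Gsg1, Sphkap, Mylk and Plpp2 are highest with Olig3, and Lrrc2 is highest with GFP, at 447 to 678 CPM.

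Over all 15609 genes tested by edgeR's quasi-likelihood test, 0.205% had a Benjamini-Hochberg adjusted p below 0.05 in Olig3 against GFP, 0.0961% higher and 0.109% lower, and 4 of the 5 genes were among them. In all 5 the libraries of those groups did not overlap, as in 7.18% of all genes with Olig3 above and 10.0% with Olig3 below. Nothing is read from that count, since the choice used this contrast. Gsg1, Sphkap, Mylk and Lrrc2 lay just inside the threshold, at an edgeR adjusted p of 0.0363 each, and Plpp2 just outside it at 0.0509. Their log2 changes were 2.60 (SE 0.37) for Gsg1, 1.96 (0.31) for Sphkap, 1.98 (0.33) for Mylk, 1.86 (0.33) for Plpp2 and -2.02 (0.31) for Lrrc2. In 8 of the 9 fits that each left out 1 library, 0 of the 5 passed the threshold, and in the fit without Olig3 library 2 all 5 did. Each log2 change kept its sign.

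With Olig2 in place of Olig3, 0 of the 5 genes passed edgeR's threshold, where 0.0513% of all genes did, 0.0384% higher and 0.0128% lower. The log2 changes against GFP were 1.29 (SE 0.35, edgeR adjusted p = 0.524) for Gsg1, 1.09 (0.31, 0.574) for Sphkap, 1.12 (0.32, 0.596) for Mylk, 0.46 (0.32, 1) for Plpp2 and -1.51 (0.30, 0.244) for Lrrc2. At an unadjusted edgeR p below 0.05 there were 4 of 5, all but Plpp2, against 4.68% of all genes. DESeq2 called 1 of the 5, Lrrc2, with an adjusted p of 0.00112. On TMM-scaled CPM the Olig2 and GFP libraries did not overlap in any of the 5, as in 8.47% of all genes with Olig2 above and 8.35% with Olig2 below. Without TMM scaling they were separate in 3 of the 5, Gsg1, Sphkap and Lrrc2.

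Between the factors, 0 of the 5 passed edgeR's threshold, as against 0.0384% of all genes, every one of them lower with Olig3. The libraries of the factor groups did not overlap for Gsg1, Mylk and Plpp2, with Olig3 above, as in 4.41% of all genes. They overlapped for Sphkap and Lrrc2, while 8.69% of all genes had every Olig3 library below every Olig2 library. The log2 change of Olig3 over Olig2 was 1.30 (SE 0.35, edgeR adjusted p = 0.694) for Gsg1, 0.87 (0.31, 0.918) for Sphkap, 0.86 (0.32, 0.918) for Mylk, 1.40 (0.32, 0.527) for Plpp2 and -0.51 (0.30, 0.933) for Lrrc2. At an unadjusted edgeR p below 0.05 there were 4 of 5, all but Lrrc2, against 5.12% of all genes. With only Olig3 library 2 in its group, the log2 changes of Gsg1 and Sphkap were 0.50 and 0.22. The libraries richest in Malat1 were Olig2 libraries 2 and 3 and Olig3 library 2. With these left out, Olig2 library 1 stood alone in its group, and the log2 change of Gsg1 was 2.22. Gsg1 passed in 1 of 22 alternatives, without a filter (edgeR adjusted p = 0.0103), and Plpp2 in 1, with DESeq2 (adjusted p = 0.00586).

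**Figure D3:**
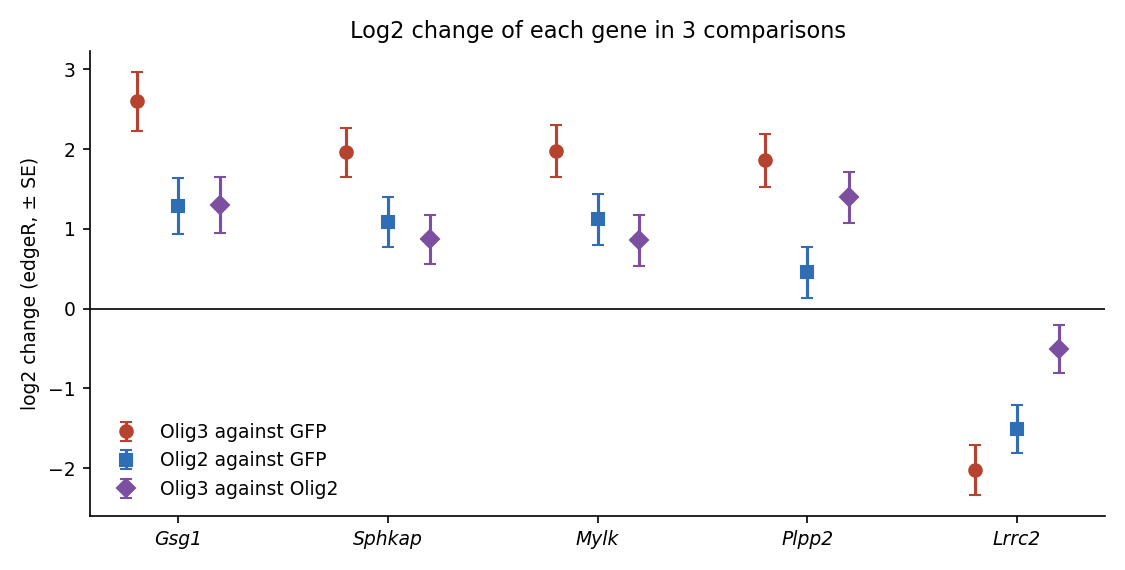
The edgeR log2 change of each gene (vertical, ± SE) in Olig3 against GFP, Olig2 against GFP and Olig3 against Olig2, the first of which chose the genes. Changes against GFP have the same sign with both factors, and Plpp2 is 1.86 with Olig3 and 0.46 with Olig2.

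The genes were then set beside marker genes of retinal cell classes in the same libraries. Cone markers (13 genes) summed to 7420, 6160 and 10300 CPM in Olig3 libraries, 3030, 4490 and 4340 in Olig2 libraries and 3600, 4240 and 2930 in GFP libraries, and Gsg1 was also highest in Olig3 library 3, as were bipolar markers. Much of the cone sum in Olig2 and GFP libraries came from Gnb3 and Guca1a, but in Olig3 library 3 Opn1sw was the largest. Opn1sw had 1530, 908 and 2960 TMM-scaled CPM with Olig3 and 558, 425 and 161 with GFP. Arr3 had 682, 500 and 1170 with Olig3 and 62.4, 153 and 54.8 with GFP. Gnb3 had 1290, 1410 and 1150 TMM-scaled CPM with Olig3 and more with GFP, at 1690, 1870 and 1580. Guca1a had 1540, 4010 and 1090 with Olig3 and 435, 617 and 414 with GFP. At an unadjusted edgeR p below 0.05, 11 of the 13 cone genes were higher with Olig3 than with GFP and 0 lower, against 12.1% of all genes in either direction. Bipolar cell markers (17 genes) summed to 2320, 1250 and 2370 CPM in Olig3 libraries, 2240, 1370 and 1340 in Olig2 libraries and 1170, 1070 and 1220 in GFP libraries. The 3 libraries richest in them, Olig3 libraries 1 and 3 and Olig2 library 1, were also the 3 highest for Sphkap. Müller glia markers (14 genes) summed to 4390, 2630 and 1120 CPM in Olig3 libraries, 3710, 4890 and 4000 in Olig2 libraries and 4930, 5070 and 11100 in GFP libraries. The genes of that list differed. Crym had 75.6, 96.4 and 9.35 TMM-scaled CPM with Olig3 and 504, 546 and 2360 with GFP. Glul, at 276, 222 and 72.0 with Olig3 and 91.9, 108 and 107 with GFP, was higher in Olig3 libraries 1 and 2. At an unadjusted edgeR p below 0.05, 4 of the 14 were lower with Olig3 than with GFP and 0 higher. Astrocyte markers (6 genes) summed to 16.8, 31.0 and 1.86 CPM in Olig3 libraries, 25.4, 24.3 and 12.4 in Olig2 libraries and 159, 133 and 235 in GFP libraries. In GFP libraries nearly all of that was Gfap (124, 78.2 and 128 TMM-scaled CPM) and Aldh1l1 (12.1, 37.7 and 67.2). Pax2 had 0.149, 0 and 2.4 there, so in GFP libraries the astrocyte sum stands mostly for Gfap. In Olig3 libraries 1 and 3 Gfap had 0 CPM, and Aldh1l1 had 15.6 and 1.61. Lrrc2 was lowest in Olig3 library 3 and highest in GFP library 3, as the Müller glia and astrocyte lists were. Ganglion cell markers (20 genes) were likewise lower with both factors. They summed to 222, 335 and 142 CPM in Olig3 libraries, 230, 443 and 216 in Olig2 libraries and 2200, 1100 and 1430 in GFP libraries. Two-sided exact permutation tests of the sums in Olig3 against GFP gave p = 0.1 for cone, bipolar, Müller, astrocyte and ganglion markers, the smallest p that 3 against 3 libraries allow. Their part in the levels of these genes was not tested.

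Mylk is best known from smooth muscle. Of 16 markers of mural and smooth muscle cells, 5 to 11 were detected in an Olig3 library, 8 to 12 in an Olig2 library and 7 to 12 in a GFP library. Acta2 and Cnn1 had 0 counts in every Olig3 and Olig2 library, and Acta2 had 2.68, 2.78 and 0 CPM in GFP libraries. Others were detected, such as Lmod1, with 0, 4.73 and 28.0 CPM in Olig3 libraries, 2.27, 2.61 and 3.57 in Olig2 libraries and 2.09, 4.93 and 0 in GFP libraries. The 16 markers of mural and smooth muscle cells summed to 935 to 1410 CPM in Olig3 libraries, 716 to 958 in Olig2 libraries and 561 to 901 in GFP libraries, but Vtn alone held 92.4 to 99.9% of that. With Vtn left out they summed to 2.02, 27.4 and 33.3 CPM in Olig3 libraries, 29.9, 27.8 and 17.7 in Olig2 libraries and 42.5, 23.6 and 28.5 in GFP libraries. Olig3 library 1, the lowest of the 9 on that sum, was the highest for Mylk, and Olig3 library 3, the second highest on that sum, was the second highest for Mylk. In Olig3 library 3, however, Lmod1 alone made up nearly all of the sum without Vtn. The part of these markers in the level of Mylk was not tested.

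**Figure D4:**
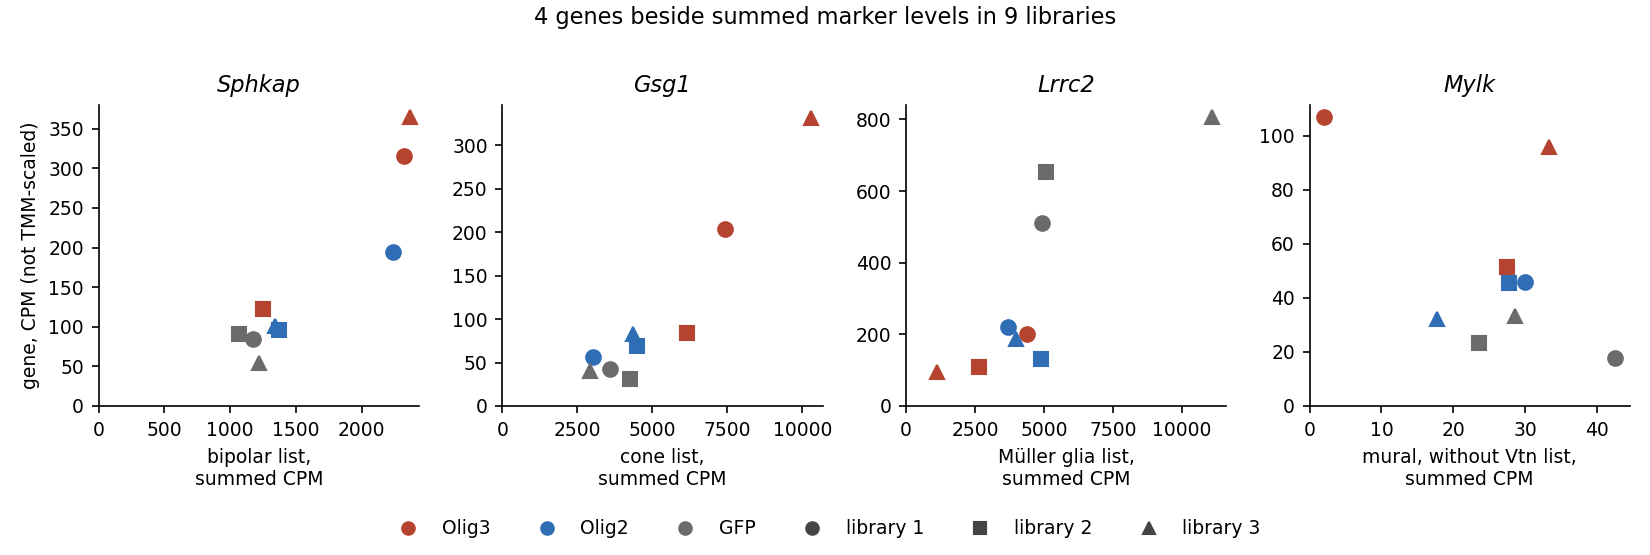
CPM without TMM scaling of Sphkap, Gsg1, Lrrc2 and Mylk (vertical) against the summed CPM of bipolar, cone, Müller glia and mural markers, the last without Vtn (horizontal), in 9 libraries. The panels were chosen after the values were seen. The 2 libraries with the most Mylk have 2.02 and 33.3 CPM of mural markers, the latter nearly all Lmod1.

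Relations between each gene and each of 16 marker lists gave 80 pairs over the 9 libraries, and their outcome depended on the form of the test. In the planned form, Pearson's r between log2 levels with an exact permutation p over all orders of the libraries, 11 of 80 had a Benjamini-Hochberg adjusted p below 0.05, with ganglion, astrocyte, cone, bipolar or Müller glia markers, and 0 of 80 did by Spearman's rho (smallest adjusted p 0.0615). That form holds the group differences that chose the genes, and libraries fell into separate clusters for several lists, so no pooled r is given. After those results had been seen, deviations from group means were tested with orders permuted inside groups, and 0 of 80 passed by r or by rho (smallest adjusted p 0.833 and 0.891). A further version, chosen after both, left the genes unscaled as the lists are, and gave 0 of 80 by r on levels (smallest adjusted p 0.0536) and 0 of 80 on deviations (0.609). Only 216 orders exist inside groups, too few for a single pair to pass after adjustment over 80 pairs. The 0 of 80 on deviations therefore decides nothing. For these reasons the relations are a description of these libraries.

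For each gene, the 3 genes whose log2 levels were most alike over the 9 libraries were taken by Pearson's r, which includes the differences between groups. For Gsg1 they were Dscaml1 (0.976), Zfp553 (0.975) and Srrm1 (0.974), and for Sphkap Rcan3 (0.975), Cabp5 (0.969) and Fam171b (0.968). Cabp5, a calcium-binding protein of bipolar cells and one of the 17 bipolar markers, had 217, 139 and 291 CPM in Olig3 libraries, 143, 91.1 and 120 in Olig2 libraries and 60.3, 67.9 and 57.2 in GFP libraries. For Mylk they were Mir124-2hg (0.973), Rnf123 (0.967) and Cox20 (0.951), for Plpp2 Plekhf2 (0.986), Ip6k2 (0.962) and Bbs7 (0.957), and for Lrrc2 Slc50a1 (0.987), Arhgdia (0.982) and Rell1 (0.973). Rell1 rests on very few counts in factor libraries, at 0.44, 0.498 and 0.146 CPM with Olig3 and 0.71, 0.712 and 1.43 with Olig2. It had 6.7, 7.58 and 11.1 CPM with GFP. Among the 5 genes themselves, r was 0.82 to 0.90 between the 4 that were higher and -0.90 to -0.72 between each of these and Lrrc2, which the choice by group difference helps to set.

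Other genes of the pathways were read from 6 lists, and 0 of 114 tested genes passed edgeR's threshold in any of the 3 comparisons. In Olig3 against GFP, 9 were higher and 8 lower at an unadjusted edgeR p below 0.05, against 12.1% of all genes. Of the relatives of Gsg1, auxiliary proteins of AMPA receptors and the poly(A) polymerase genes Papola and Papolb, 0 of 15 did so. Their median log2 change was -0.35 against -0.06 over all genes. Gsg1l, a relative of Gsg1, had 60, 8 and 1 counts in Olig3 libraries, 65, 17 and 23 in Olig2 libraries and 4, 12 and 0 in GFP libraries.

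Among subunits and anchors of protein kinase A, the kinase that Sphkap anchors, 3 of 20 were higher and 2 lower at that level, with a median of -0.29. For Olig3 against GFP the anchor Akap8 was at 0.85 on the log2 scale (edgeR adjusted p = 0.217) and the kinase inhibitor Pkig at -0.88 (edgeR adjusted p = 0.199). Among 13 genes listed beside Sphkap for junctions of the endoplasmic reticulum with the cell surface, 2 were higher and 1 lower, with a median of 0.16. The log2 change of Ryr3, a calcium release channel, was 1.78 for Olig3 against GFP (edgeR adjusted p = 0.263).

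For Mylk, 0 of 20 genes of myosin light chain phosphorylation were higher and 1 was lower, with a median of -0.04. That one was the kinase Rock2, with 142, 117 and 102 CPM in Olig3 libraries, 165, 114 and 125 in Olig2 libraries and 280, 172 and 261 in GFP libraries (edgeR log2 change -0.98, adjusted p = 0.171 for Olig3 against GFP). The related kinase genes Mylk2, Mylk3 and Mylk4 had 0 counts in all Olig2 and GFP libraries and at most 20 in an Olig3 library. Among 17 relatives of Lrrc2 and genes of mitochondrial biogenesis, 3 were higher and 0 lower, with a median of 0.22, the opposite sign to Lrrc2. They were, with their log2 changes, the nuclear receptors Esrrb (1.07, edgeR adjusted p = 0.199) and Esrrg (1.31, edgeR adjusted p = 0.330) and the coactivator Ppargc1b (1.34, edgeR adjusted p = 0.237).

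Of 29 genes of lipid phosphate phosphatases and sphingosine phosphate, 1 was higher and 4 were lower, with a median of 0.23. The phosphatases nearest to Plpp2 were Plpp1, at 0.50 on the log2 scale (edgeR adjusted p = 0.746), and Plpp3, at 0.23 (edgeR adjusted p = 0.926). Sphk1 and Sphk2 are kinases that make sphingosine phosphate. Sphk1 had 0, 8 and 2 counts in Olig3 libraries, 11, 23 and 10 in Olig2 libraries and 69, 62 and 69 in GFP libraries (edgeR log2 change -3.61, adjusted p = 0.358 for Olig3 against GFP). Sphk2, the more abundant, had 581, 395 and 406 counts in Olig3 libraries, 469, 380 and 323 in Olig2 libraries and 497, 757 and 254 in GFP libraries (edgeR log2 change 0.25, adjusted p = 0.822 for Olig3 against GFP). The ceramide synthases Cers5 and Cers4 had log2 changes of -1.30 and 0.71 (edgeR adjusted p = 0.268 each).

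**Figure D5:**
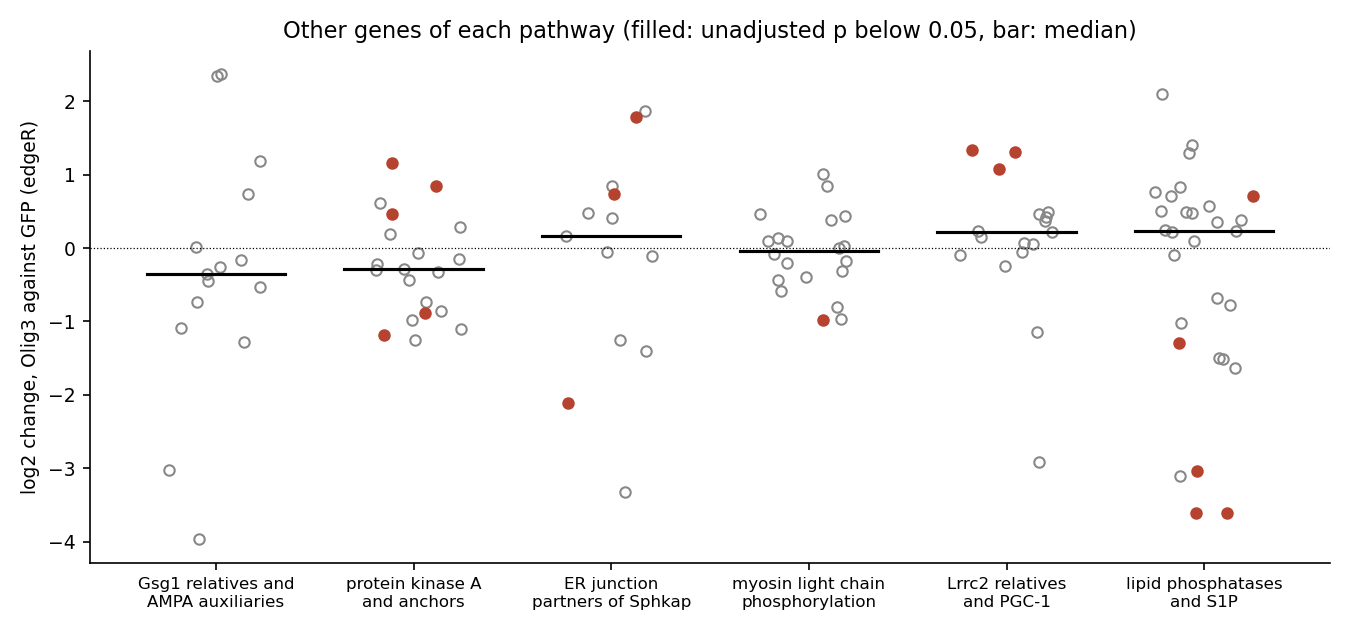
Log2 change by edgeR in Olig3 against GFP (vertical) of each tested gene in 6 pathway lists (horizontal), with filled points at an unadjusted p below 0.05 and a bar at the median. List medians lie between -0.35 and 0.23, and 0 of 114 genes pass after adjustment.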

How the data were processed

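Poly-A RNA of hand-picked cells was turned into cDNA (SMART-Seq HT kit, 20 cycles of amplification), per the labels' protocols. The authors deposited 1 table of whole-number counts per gene, not normalized. FastQC, HISAT2 and HTSeq on mm10 are named in the submitters' processing notes, without versions, and no source used here states the strand setting. Reads carry no molecular identifiers. A count of 3, the limit that 0 counts allow, was 0.43 to 0.56 CPM, and covers counting error only.

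Differences were tested with the quasi-likelihood F test of edgeR 4.0.16, run in R 4.3.3, with TMM factors, filterByExpr, 1 model of group means over 9 libraries and Benjamini-Hochberg adjustment over 15609 genes, at 0.05. The script was tested on simulated data. Levels of genes are TMM-scaled CPM, and sums of marker lists are unscaled. Log2 levels for relations used a prior count of 2. Permutation tests used scipy 1.17.1. Coordinates are from GENCODE M21 (50712 of 50764 identifiers matched) and promoters from RefSeq.

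The members and lists were chosen with earlier results of these data known. The genes named were the 5 members, Olig2, Olig3, the 3 genes most alike to each member, and from each pathway list close relatives and up to 3 genes with the smallest p, with the most abundant or defining markers. One gene that this rule took from a pathway list is not reported here. The lists named in the text beside a member, the promoters printed the sum without Vtn and the overlap on unscaled CPM were chosen after values were seen. Relations of members with 16 of 20 marker lists (80 pairs) were run in 4 forms. The planned form was the relation of levels. The test on deviations inside groups and both forms with unscaled members were added after earlier forms had been seen, and all 4 are reported. Alternatives were other scalings, filters, DESeq2 1.42.0, limma-voom (limma 3.58.1), robust fits, fits of pairs of groups, a replicate block and leaving out libraries.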

Additional observations from a re-analysis of the deposited data

How the results depend on the processing

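Over 330 log2 changes of the 5 genes under alternatives, 0 reversed. Calls were less stable: in Olig3 against GFP, 42 values kept a call, 46 lost it and 6, all of Plpp2, gained one. Calls of the 5 genes in that contrast test nothing under any setting, since it chose them. In Olig2 against GFP 6 of 110 values gained a call and in Olig3 against Olig2 2 of 110. Counts of genes called also moved. In Olig3 against GFP (32 with all libraries) they were 556 without a filter, 637 with DESeq2, 78 with limma-voom, 0 with only the pair of groups, 0 with Olig3 libraries 1 and 3 left out, 20 without the libraries richest in Malat1, and 0 to 505 leaving out 1 library each, the highest without Olig3 library 2. In Olig2 against GFP (8) they were 176 without a filter, 116 with DESeq2, 23 with only the pair, 41 with Olig3 libraries 1 and 3 left out, 5 without the Malat1-rich libraries and 0 to 24 leaving out 1 library. In Olig3 against Olig2 (6) they were 140 without a filter, 105 with DESeq2, 1 with limma-voom, 2 with only the pair, 0 with Olig3 libraries 1 and 3 left out and 2 to 160 leaving out 1 library. The cause was not tested. Replicate numbers did not pair the libraries (correlations of deviations -0.063 to 0.113), and with the replicate block 0, 10 and 8 genes were called in Olig3 against GFP, Olig2 against GFP and Olig3 against Olig2. Of the 5 genes, 5 passed in Olig3 against GFP with DESeq2, limma-voom, no filter, a filter at 10 CPM in 3 libraries, robust fits and without Olig3 library 2, 2 passed without the Malat1-rich libraries, and 0 with Olig3 libraries 1 and 3 left out, with only the pair of groups, under the block or in the other 8 fits without 1 library. Lrrc2 passed in Olig2 against GFP in 5 of 22 alternatives and Gsg1 in 1. In Olig3 against Olig2, Gsg1 passed in 1 and Plpp2 in 1. The ratio of summed mural markers, Olig3 over GFP, was 1.45, and 0.663 with Vtn left out. Fits with 1 library in a group assume that it varies like the other groups. Relations with marker lists depended on the form: 11 of 80 passed by r on TMM-scaled levels, and 0 of 80 in the other 3 forms. The forms on deviations had only 216 orders, too few for a single pair to pass after adjustment.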
